A study of Mus musculus with 2 samples.

Results

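Src, Lck, Lyn, Fyn, Fgr, Yes1 and Blk, 7 kinases of the Src family, were followed through single-cell libraries of mouse salivary gland. Each was matched by its exact symbol, and all 7 were found among the 50768 features of the gene tables. Their raw unique molecular identifiers (UMIs, 1 for each captured transcript) were counted in barcodes with at least 500 UMIs and 300 genes, of which there were 6500 in the NOD library and 7014 in the CD1 library. The NOD library came from untreated NOD/ShiLtJ mice, an inbred strain that develops autoimmune sialadenitis and diabetes, and the CD1 library from untreated CD1 mice, an outbred stock used as the control. All mice were adult females according to the study's methods, and the right submandibular and sublingual glands were pooled. Each library was 1 pool (3 mice by the labels, another number in the study's methods), enriched for stroma by removing epithelial cells, red cells and dead cells. With 1 library per strain, differences between strains have no replicate check and were not tested, and strain cannot be told apart from pool, dissociation or library.

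Src family kinases are membrane-anchored, non-receptor tyrosine kinases. A tyrosine in the C-terminal tail, phosphorylated by Csk, folds the enzyme into an inactive form, and phosphatases such as Ptprc (CD45) open it again. Lck and Fyn start signalling from the T cell receptor, Lyn and Blk act below the B cell receptor, Lyn and Fgr below Fc receptors and integrins of myeloid cells, and Src, Yes1 and Fyn at focal adhesions and endothelial junctions. Src, Lck and Lyn are among the kinases inhibited by nintedanib, the compound the study followed.

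The sequence upstream of each start was read from the RefSeq promoter table (build GRCm38.p6), which held windows for 5 of the 7 genes. Lck was found here mostly in lymphocytes, Yes1 mostly in endothelium, and Fyn in both, with its highest levels in T and NK cells. The windows shown were picked because their base composition separates them, and they give no comparison of lineages. The 250 bases before the start are shown for Lck, Fyn and Yes1. All are written 5′ to 3′ on the strand of the gene, and capitals mark each CG dinucleotide.
Lck, upstream start, chr4:129573642-129573891, minus strand: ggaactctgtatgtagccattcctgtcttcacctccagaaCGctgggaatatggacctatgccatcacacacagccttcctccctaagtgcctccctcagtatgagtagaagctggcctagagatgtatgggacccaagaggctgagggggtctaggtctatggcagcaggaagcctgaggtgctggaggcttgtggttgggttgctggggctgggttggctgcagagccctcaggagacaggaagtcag
Lck, downstream start, chr4:129558373-129558622, minus strand: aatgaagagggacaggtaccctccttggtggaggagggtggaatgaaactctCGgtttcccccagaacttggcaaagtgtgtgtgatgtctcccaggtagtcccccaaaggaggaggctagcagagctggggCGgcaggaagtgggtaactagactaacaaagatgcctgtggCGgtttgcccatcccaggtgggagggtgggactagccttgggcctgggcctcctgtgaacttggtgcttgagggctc
Fyn, chr10:39369549-39369798, plus strand: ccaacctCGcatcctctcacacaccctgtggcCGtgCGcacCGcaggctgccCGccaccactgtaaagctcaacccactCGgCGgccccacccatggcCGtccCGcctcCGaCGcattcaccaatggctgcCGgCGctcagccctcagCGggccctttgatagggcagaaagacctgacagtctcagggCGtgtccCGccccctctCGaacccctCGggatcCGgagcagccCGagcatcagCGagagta
Yes1, chr5:32610921-32611170, plus strand: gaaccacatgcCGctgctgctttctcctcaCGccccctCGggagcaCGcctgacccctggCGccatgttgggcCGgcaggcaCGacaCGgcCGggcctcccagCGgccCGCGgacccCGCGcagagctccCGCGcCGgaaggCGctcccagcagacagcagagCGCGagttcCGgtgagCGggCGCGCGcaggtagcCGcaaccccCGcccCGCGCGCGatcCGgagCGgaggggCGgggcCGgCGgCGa
The upstream Lck window held 1 CG and the downstream one 3, against a median of 6 over 32841 such windows. Fyn held 21 and Yes1 37, more than in 83.6% and 97.8% of all windows. Src (40 CG at chr2:157424043-157424292) and Fgr (9 CG at chr4:132973845-132974094) fell on either side of these. Searched on both strands, the letters GGGCGG, the core bound by Sp-type factors, occurred in the windows of Src, Fyn, Yes1 and the downstream start of Lck, and in 32.7% of all windows. The letters TGTGGT, the core of Runx sites, occurred in the upstream Lck window and in Yes1, and in 14.0% of all windows. TATAAA, GAGGAAGT and CCGGAAGT occurred in none of the members' windows, against 12.4%, 2.44% and 2.88% of all windows. The libraries count transcript ends and do not show which start was used.

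The kept barcodes had a median of 5719.5 UMIs in NOD and 6495 in CD1, and 18 barcode sequences were kept in both libraries. Barcodes were placed in a lineage when at least 70% of their marker UMIs came from 1 list. The T-like class held 2062 barcodes in NOD and 104 in CD1, the NK-like class 542 and 352, the B-like class 892 and 9, the macrophage-like class 702 and 2947, and the endothelial-like class 1024 and 2817. Despite the stromal label, fibroblast-like barcodes numbered 57 and 17, and epithelial-like ones 7 and 52. By clustering of all barcodes, 90 in NOD and 93 in CD1 fell in a cluster named fibroblast. Its leading genes included Acta2, a gene of the myoepithelial list. Macrophage-like barcodes were shallower in NOD, with a median of 3292 UMIs against 7047. Barcodes at the edge of the rule, with 60 to 80% of marker UMIs from 1 list, numbered 610 in NOD and 199 in CD1. The B-like class was the least clean of these classes in NOD. When all barcodes were clustered, 69.3% of it fell in the B cluster, against 88.4% or more for the T-, NK-, macrophage- and endothelial-like classes. Free RNA, estimated from empty droplets, made up 15.1% of its UMIs, against 5.29% or less in those classes. Levels are given as CPM, UMIs of the gene scaled to 1000000 UMIs of the class, with exact 95% Poisson intervals, and strain differences as log2 NOD over CD1 with exact 95% binomial intervals. Shares of barcodes with a UMI carry exact Clopper-Pearson 95% intervals in percent. All intervals and limits cover counting error only.

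The 7 kinases differed in level between lineages, some of them with a narrow lead of the highest lineage. Among the 5 main lineages, Lck and Fyn were highest in T-like barcodes, Blk in B-like, Lyn and Src in macrophage-like and Yes1 in endothelial-like barcodes of NOD, while Fgr was at nearly the same level in NK-like and B-like barcodes. Yes1 and Blk stood at least 4-fold above every other main lineage in NOD, as did 14.1% of all 14115 genes compared. The highest lineage led the next by 3.84-fold for Src, 1.52-fold for Lck, 1.35-fold for Lyn, 1.15-fold for Fyn and 1.05-fold for Fgr. In CD1 the 9 B-like barcodes were too few to be ranked, so 4 lineages were compared there against 5 in NOD. Among these 4, Yes1, Lyn and Blk stood at least 4-fold above every other, as did 17.4% of 14462 genes. Blk then led in T-like barcodes. Macrophage-like Lyn, at 882 CPM, was set against 154 CPM in endothelial-like barcodes, while the unranked B-like barcodes had 820 CPM.

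**Figure D1:**
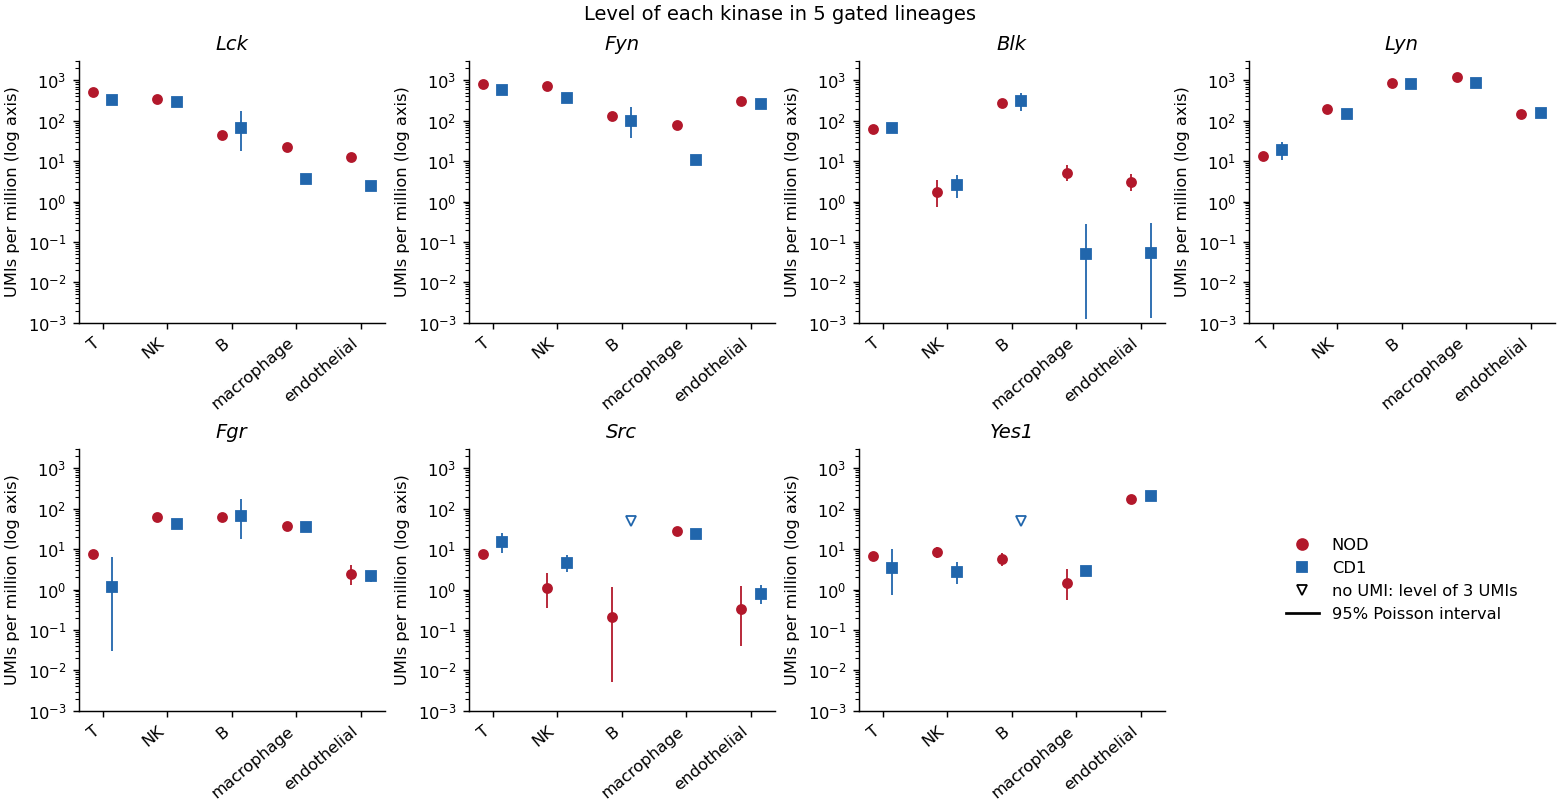
Level of each kinase (CPM, log axis) in T-, NK-, B-, macrophage- and endothelial-like barcodes, 1 point per library (NOD and CD1) with exact 95% Poisson bars; open triangles mark 0 UMIs and stand at the level of 3 UMIs. Yes1 stands apart in endothelial-like barcodes at 171 CPM in NOD and 203 CPM in CD1, whereas Lyn is above 800 CPM in both macrophage- and B-like barcodes.

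Lck, which phosphorylates the CD3 chains and Zap70 after the T cell receptor is engaged, stood at 520 CPM (508 to 532) in NOD T-like barcodes and 327 CPM (290 to 368) in CD1. In NK-like barcodes it stood at 342 CPM and 287 CPM. Among T-like barcodes 86.9% (85.3 to 88.3) in NOD and 69.2% (59.4 to 77.9) in CD1 held at least 1 Lck UMI, and 23.5% and 12.5% did when each barcode was thinned to 500 UMIs. Endothelial-like barcodes, which should lack Lck, held a UMI in 4.39% (3.22 to 5.84) in NOD and 1.21% (0.837 to 1.68) in CD1, at median depths of 5173 and 6217 UMIs against 6123.5 and 7937.5 for T-like barcodes. Of the 74 Lck UMIs in NOD endothelial-like barcodes, 65.0 were the number expected from free RNA, estimated from empty droplets.

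T-like Lck was higher in NOD by 0.67 on the log2 scale (0.50 to 0.85). The median gene with UMIs in both libraries moved by 0.10 between the T-like classes, and relative to it the Lck difference was 0.57. It was 0.49 under a stricter marker gate. Among T-like barcodes with a UMI of Trac, the constant gene of the T cell receptor alpha chain, and none of Trdc, that of the delta chain, it was 0.34 (0.15 to 0.52), so the value depended on which T-like barcodes were summed. In NK-like barcodes the Lck difference was 0.25 (0.14 to 0.36).

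Fyn, which shares T cell receptor substrates with Lck, was found in lymphoid and endothelial lineages alike. It stood at 835 CPM in NOD and 577 CPM in CD1 T-like barcodes, 728 and 376 CPM in NK-like, 130 and 100 CPM in B-like and 302 and 254 CPM in endothelial-like barcodes. Of the 636 Fyn UMIs in NOD B-like barcodes, 178 were expected from free RNA. T-like barcodes with a Fyn UMI made up 93.6% (92.5 to 94.6) and 94.2% (87.9 to 97.9) (33.4% and 27.9% thinned). Macrophage-like barcodes, the lowest main lineage, held one in 13.5% (11.1 to 16.3) in NOD and 4.04% (3.36 to 4.81) in CD1. Fyn was therefore seen in nearly every T-like barcode of both strains and also in 64.6% and 66.0% of endothelial-like barcodes.

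T-like Fyn was higher in NOD by 0.53 (0.40 to 0.66), and by 0.43 relative to the median gene. In NK-like barcodes the difference was 0.95 (0.87 to 1.04). There it differed by subset: barcodes with a UMI of Eomes, a T-box factor of conventional NK cells, had 877 CPM in NOD and 401 CPM in CD1, a difference of 1.13 (1.01 to 1.25). NK-like barcodes without Eomes had 434 and 353 CPM, a difference of 0.30 (0.15 to 0.45). With Eomes there were 303 NOD and 145 CD1 barcodes, and without it 239 and 207. T-marker UMIs in the NK-like class as a whole amounted to 518 CPM in NOD and 273 CPM in CD1, and their part in these differences was not tested. In the NK-like barcodes without any macrophage, B or T marker UMI, 34 in NOD and 18 in CD1, the difference was 0.65 (0.13 to 1.18) for Fyn and 0.023 (-0.62 to 0.67) for Lck. For every 100 Fyn UMIs, T-like barcodes held 62.3 Lck UMIs in NOD (60.5 to 64.2) and 56.7 in CD1 (48.8 to 65.7), and NK-like barcodes 46.9 (44.2 to 49.8) and 76.4 (70.6 to 82.6). The intervals overlapped in T-like and not in NK-like barcodes.

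Within NOD T-like barcodes, Lck was nearly level across the classical subsets. It stood at 544 CPM in 813 barcodes with Cd4 and neither Cd8 nor Foxp3, at 532 CPM in 521 barcodes with Cd8 and no Cd4, and at 563 CPM in 204 barcodes with Foxp3. Fyn was at 800, 966 and 788 CPM in the same subsets, higher with Cd8 than with Cd4 by 0.27 (0.21 to 0.34).

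Blk, the B-lineage member of the family, was not limited to B-like barcodes. It stood at 278 CPM in NOD B-like barcodes and at 301 CPM in the 9 CD1 ones, a log2 difference of -0.11 (-0.78 to 0.64). The median gene with UMIs in both libraries moved by -0.18 between the B-like classes, and relative to it Blk differed by 0.067, while over all genes tested, those without a CD1 UMI included, the median was 0.33. In T-like barcodes it stood at 61.2 CPM in NOD and 67.5 CPM in CD1, a difference of -0.14 (-0.53 to 0.27), or -0.63 under the stricter marker gate. In NOD, T-like barcodes held 33.1% of all Blk UMIs and B-like barcodes 53.5%, and in CD1, T-like barcodes held 58.6% and B-like ones 18.2%. Of B-like barcodes 58.9% (55.5 to 62.1) and 77.8% (40 to 97.2) held a Blk UMI, 11.5% and 11.1% after thinning. In endothelial-like barcodes the 18 Blk UMIs of NOD stood beside 17.2 expected from free RNA.

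The T-like Blk came from few barcodes, which the markers of T cell receptor chains set apart. This split was chosen after the Blk values were seen. Barcodes with Trdc and no Trac, 87 in NOD and 13 in CD1, had 971 CPM (886 to 1061) and 596 CPM (453 to 771). The strain difference of Blk there was 0.70 (0.31 to 1.12), against -0.14 in the whole T-like class. Barcodes with Trac and no Trdc, 1495 and 65, had 4.30 CPM in NOD and no UMI in CD1, where 3 UMIs would be 5.12 CPM. Blk was higher in the Trdc barcodes by 7.82 on the log2 scale in NOD (7.39 to 8.28). In CD1, 596 CPM over the level of 3 UMIs was 116-fold, and the exact interval of the log2 ratio starts at 6.52. Lck ran the other way, at 159 CPM with Trdc and 543 CPM with Trac in NOD, and at 51.4 and 430 CPM in CD1. The Trdc over Trac difference of Lck was -1.77 (-2.11 to -1.45) in NOD and -3.07 (-4.70 to -1.82) in CD1. For Fyn it was -0.60 in NOD and -0.08 in CD1.

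**Figure D2:**
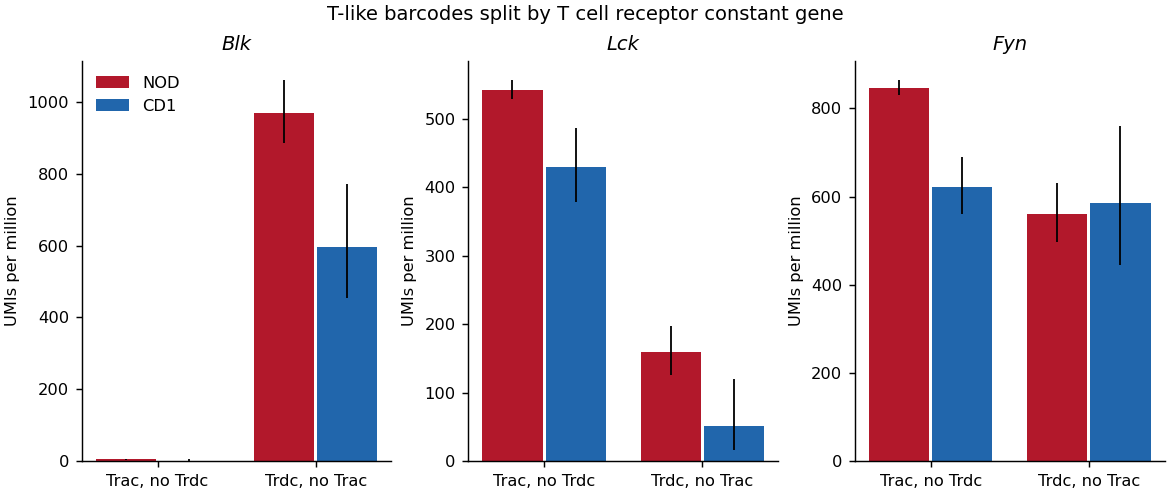
Levels of Blk, Lck and Fyn (CPM, bars from 0) in T-like barcodes with Trac and no Trdc and with Trdc and no Trac, by library, with exact 95% Poisson bars. In NOD, Blk is at 4.30 CPM with Trac and 971 CPM with Trdc, and Lck at 543 CPM and 159 CPM.

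The 130 NOD T-like barcodes with a Blk UMI shared other genes. Il23r, a receptor chain of interleukin-23 signalling, was found in 90.0% of them against 2.07% of the other T-like barcodes. Trdc was found in 74.6% against 2.43%, Trac in 41.5% against 77.5%, and Lck in 24.6% against 91.0%. All 9 CD1 T-like barcodes with Blk held Trdc and Il23r, and none held Lck, against 75.8% of the other T-like barcodes. Clustering of all barcodes placed 190 NOD and 13 CD1 barcodes in a cluster led by Scart1 and Il23r, with Blk among its 10 leading genes.

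Lyn, which both starts and, through inhibitory receptors, restrains signalling in B and myeloid cells, was highest among the 5 main lineages in macrophage-like barcodes, at 1178 CPM in NOD and 882 CPM in CD1. The few monocyte-like barcodes had 1201 CPM (1076 to 1336) and 1896 CPM (1654 to 2162). B-like barcodes were close behind in NOD at 874 CPM, macrophage-like over B-like being 1.35-fold (1.29 to 1.41), and stood at 820 CPM in CD1. NK-like barcodes had 198 and 145 CPM and endothelial-like ones 149 and 154 CPM. T-like barcodes had 13.7 CPM in NOD and 18.6 CPM in CD1. A Lyn UMI was found in 61.4% (57.7 to 65.0) and 72.0% (70.3 to 73.6) of macrophage-like barcodes (30.1% and 26.4% thinned) and in 4.36% and 10.6% of T-like ones. Of the 188 Lyn UMIs in NOD T-like barcodes, 96.3 were expected from free RNA, and of the 16 in CD1, 12.9.

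Macrophage-like Lyn was higher in NOD by 0.42 (0.37 to 0.46). It was 0.39 (0.29 to 0.48) in the macrophage-like barcodes without any T, NK, B or plasma marker UMI (214 in NOD, 1935 in CD1), 0.23 when clusters replaced the gates, and 0.20 as the mean of the CPM of each barcode. The unthinned shares ran in the opposite order to the levels, the CD1 barcodes being deeper. In NK-like barcodes the Lyn difference was 0.45 (0.29 to 0.60) and fell to 0.06 by clusters. In endothelial-like barcodes it was -0.05 (-0.16 to 0.06) and in B-like ones 0.09 (-0.31 to 0.53), both with intervals on either side of 0.

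Fgr, a myeloid member of the family, was densest in the small monocyte- and neutrophil-like classes. In monocyte-like barcodes it stood at 501 CPM (422 to 591) in NOD and 803 CPM (649 to 982) in CD1, from 22 and 12 barcodes, and in neutrophil-like ones at 1350 CPM from 5 barcodes and 771 CPM from 4. In the large lineages it was lower, at 64.3 and 43.1 CPM in NK-like, 37.7 and 34.8 CPM in macrophage-like and 61.5 CPM in NOD B-like barcodes. NK-like over B-like Fgr in NOD was 1.05-fold (0.89 to 1.23), so these neighbours in the order did not differ beyond counting error. Endothelial-like barcodes had 2.38 CPM in NOD and 2.14 CPM in CD1. A UMI was found in 26.6% (22.9 to 30.5) and 23.9% (19.5 to 28.7) of NK-like barcodes. The strain difference of Fgr was 0.58 (0.30 to 0.86) in NK-like and 0.12 (-0.15 to 0.37) in macrophage-like barcodes, and the latter became -0.26 as the mean of the CPM of each barcode. In T-like barcodes 106 NOD UMIs stood against 1 in CD1, a difference of 2.73 with an interval from 0.22 to 8.05.

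Src itself, the ubiquitous member that gives the family its name, was sparse in all large lineages. Macrophage-like barcodes had 28.9 CPM in NOD and 23.8 CPM in CD1, and a UMI in 13.1% (10.7 to 15.8) and 13.0% (11.8 to 14.2). The difference was 0.28 (-0.03 to 0.57). Macrophage-like Src lay above T-like Src by 3.84-fold (2.92 to 5.06) in NOD and 1.58-fold (0.91 to 2.98) in CD1. T-like barcodes had 7.51 and 15.1 CPM, a difference of -1.01 (-1.85 to -0.05) that rested on 13 CD1 UMIs. NK-like barcodes had 5 UMIs in NOD and 18 in CD1, a difference of -2.08 (-3.86 to -0.60). With Eomes there were 3 and 2 Src UMIs (-0.12, -3.25 to 3.46), and without Eomes 2 and 16 (-2.59, -5.76 to -0.51). Macrophage-marker UMIs in the NK-like class amounted to 15.9 CPM in NOD and 53.2 CPM in CD1, and their part was not tested. In endothelial-like barcodes Src was at the level of free RNA: 2 UMIs were counted in NOD, and in CD1 15 were counted where 15.5 were expected. Other classes, of few barcodes, stood at 44.7 and 66.5 CPM in 2 and 25 myoepithelial-like barcodes, 85.3 and 56.7 CPM in 13 and 8 mural-like ones, and 23.5 and 6.71 CPM in 57 and 17 fibroblast-like ones. The first 2 of these classes lay above macrophage-like Src and the fibroblast-like one below it. They rested on between 1 and 20 UMIs each.

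Yes1, close to Src in sequence and likewise used at cell junctions, was an endothelial kinase in this map. It stood at 171 CPM in NOD and 203 CPM in CD1 endothelial-like barcodes, which held 74.4% and 92.3% of all its UMIs. The next large lineage lay 20.3-fold lower in NOD (14.8 to 28.8) and 58.0-fold lower in CD1 (19.8 to 281), the latter from 3 T-like UMIs. The few fibroblast-like barcodes, 57 and 17, were nearer, at 40.3 and 20.1 CPM from 24 and 3 UMIs. Of endothelial-like barcodes 46.9% (43.8 to 50) and 58.0% (56.2 to 59.9) held a UMI (8.98% and 8.66% thinned). Capillary barcodes had 173 CPM in NOD and 208 CPM in CD1 and arterial ones 107 and 147 CPM, an arterial over capillary difference of -0.69 (-1.48 to -0.0016) from 23 arterial barcodes and -0.50 (-0.97 to -0.07) from 51.

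Endothelial Yes1 was lower in NOD by a log2 difference of -0.25 (-0.35 to -0.15), and Fyn higher by 0.25 (0.17 to 0.32). In the endothelial-like barcodes without any immune marker UMI, 97 in NOD and 446 in CD1, the differences were 0.032 (-0.43 to 0.47) for Yes1 and 0.075 (-0.30 to 0.43) for Fyn. In NK-like barcodes Yes1 had 39 UMIs in NOD, where 3.31 were expected from free RNA, and 11 in CD1, where 10.1 were expected, a difference of 1.60 (0.60 to 2.71). With Eomes it had 33 and 3 UMIs, a difference of 2.75 (1.08 to 5.10), and without Eomes 6 and 8 UMIs (-0.0099, -1.82 to 1.71).

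Members past a 2-fold difference with an interval on 1 side of 0 were counted by lineage, beside the same share of all genes. In T-like barcodes 1 of 7 was higher in NOD (Fgr) and 1 lower (Src), against 4.88% and 3.7% of all genes. Of the 6 with enough UMIs in NK-like barcodes, Yes1 was higher and Src lower, against 5.39% and 3.97% of all genes. None of 6 did so in B-like barcodes, where 1.4% of all genes were higher and 3.01% lower, and none of 3 in fibroblast-like barcodes (8.15% and 3.77%). In endothelial-like barcodes 1 of 5 was higher, Lck at 12.6 CPM against 2.45 CPM (7.03% of all genes higher, 2.81% lower). In macrophage-like barcodes 3 of 7 were higher and none lower, against 6.77% and 3.99% of all genes. These were Fyn at 76.7 against 10.6 CPM, Lck at 22.7 against 3.63 CPM, and Blk with 21 UMIs against 1, a difference of 6.70 with an interval from 4.07 to 12.07.

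**Figure D3:**
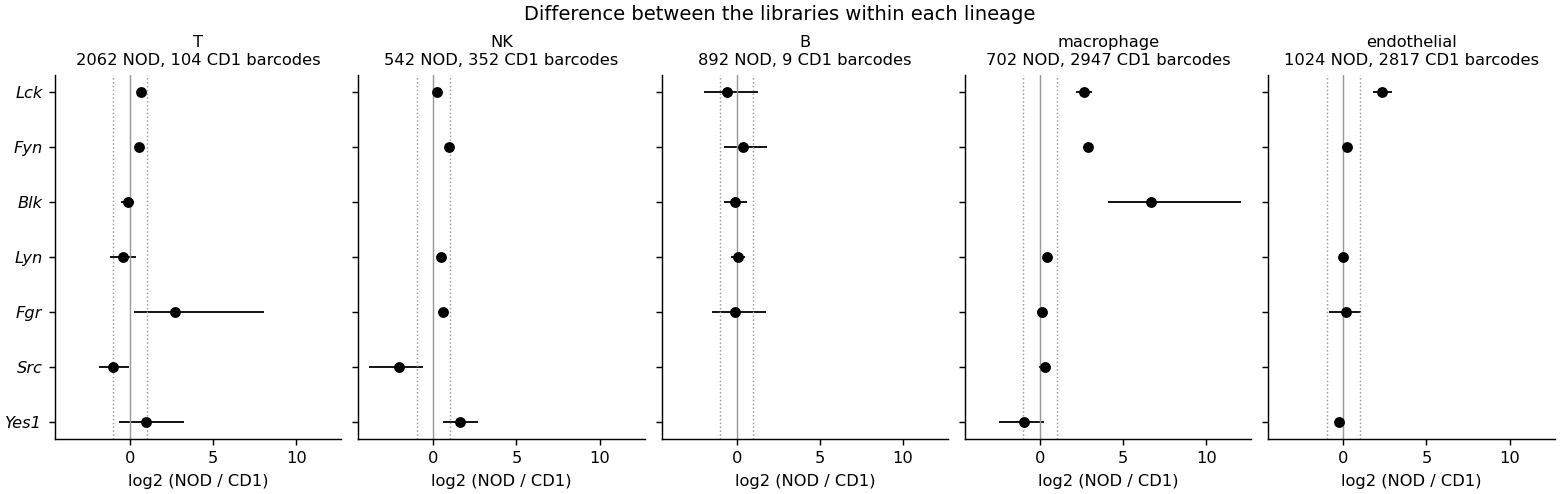
Log2 NOD over CD1 of each member in the main lineages, with exact 95% binomial bars, for members with at least 20 UMIs in both libraries together and a UMI in each; the dotted lines mark 2-fold. Fyn (2.86) and Lck (2.64) in macrophage-like barcodes lie far above their T-like values of 0.53 and 0.67.

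Lymphocyte RNA in macrophage-like barcodes also differed between the libraries. T-marker UMIs in macrophage-like barcodes amounted to 91.2 CPM in NOD and 9.11 CPM in CD1, and 11 of the 14 T and NK partner genes tested there were higher in NOD as well, with a median log2 difference of 3.0 against 0.06 for all genes. In endothelial-like barcodes T-marker UMIs amounted to 64.7 and 5.64 CPM, and 11 of 12 partner genes were higher, with a median of 2.70 against 0.07. In macrophage-like barcodes without T, NK, B or plasma marker UMIs, Fyn stood at 34.6 and 8.44 CPM, a difference of 2.04 (1.41 to 2.62) against 2.86 in all. Lck stood at 5.40 and 1.18 CPM (5 and 14 UMIs), a difference of 2.19 (0.37 to 3.75) against 2.64 in all, and Blk had 3 UMIs in NOD and 0 in CD1. In macrophage-like barcodes with such marker UMIs the difference was 2.71 (2.39 to 3.04) for Fyn and 1.96 (1.46 to 2.46) for Lck. The part of lymphocyte RNA was not tested. Of the 311 Fyn UMIs in NOD macrophage-like barcodes, 10 barcodes held 46.0%, and 31.2 UMIs were expected from free RNA.

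Over all kept barcodes, the levels of 4 members were past 2-fold, 3 higher in NOD and 1 lower. Of all genes 15.4% were higher and 14.2% lower (29.6% in all). Blk stood at 58.4 CPM in NOD and 2.00 CPM in CD1, a log2 difference of 4.87, Lck at 268 and 38.4 CPM (2.80), Fyn at 519 and 166 CPM (1.64), and Yes1 at 31.1 and 85.1 CPM (-1.45). Lyn (-0.58), Fgr (0.69) and Src (-0.79) differed by less. When each class kept its CD1 level and only the share of UMIs in each class was set to that of NOD, the differences were 4.83 for Blk, 2.24 for Lck, 1.03 for Fyn, -1.20 for Yes1, -0.74 for Lyn, 0.17 for Fgr and -0.16 for Src. For Src and Fgr most of the difference was left. What was left ranged from -0.62 for Src to 0.62 for Fyn, with 0.04 for Blk and 0.57 for Lck. These values have no interval and take each class as a whole. Some CD1 levels behind them rest on few UMIs, 18 in B-like and 58 in T-like barcodes for Blk and 13 in T-like barcodes for Src. Within the T-like class, barcodes with Trdc and no Trac were 87 of 2062 in NOD and 13 of 104 in CD1. Blk was higher in NOD by 0.70 (0.31 to 1.12) in these barcodes, which the split does not separate.

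**Figure D4:**
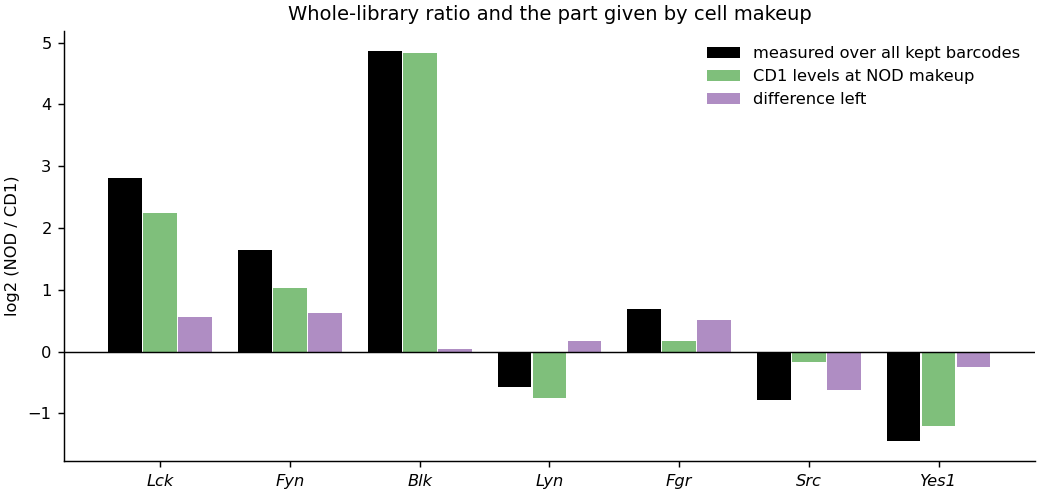
Log2 NOD over CD1 over all kept barcodes for each kinase, split into the part given by the makeup of the libraries and the part left within classes. For Blk the makeup part is 4.83 of 4.87, and for Fyn it is 1.03 of 1.64. The split takes each class as a whole and has no interval, and the CD1 B-like level of Blk rests on 18 UMIs.

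The classes that held a gene's UMIs differed between the libraries. T-like barcodes held 61.2% of Lck UMIs in NOD and 14.8% in CD1, where NK-like barcodes held 60.0%. T-like barcodes held 50.8% of Fyn UMIs in NOD, while endothelial-like barcodes held 59.4% in CD1. Macrophage-like barcodes held 35.1% of Lyn UMIs in NOD, next to 31.3% in B-like ones, and 76.5% in CD1. For Src they held 38.2% and 79.8%. The UMIs of Yes1 were mainly endothelial in both. In empty droplets the differences had the same signs, with Lck at 216 CPM in NOD and 28.8 CPM in CD1, Blk at 57.2 and 0.59 CPM, and Yes1 at 13.5 and 42.4 CPM, and 3 members were higher and 2 lower past 2-fold there, against 9.39% and 16.9% of all genes (26.3% in all).

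**Figure D5:**
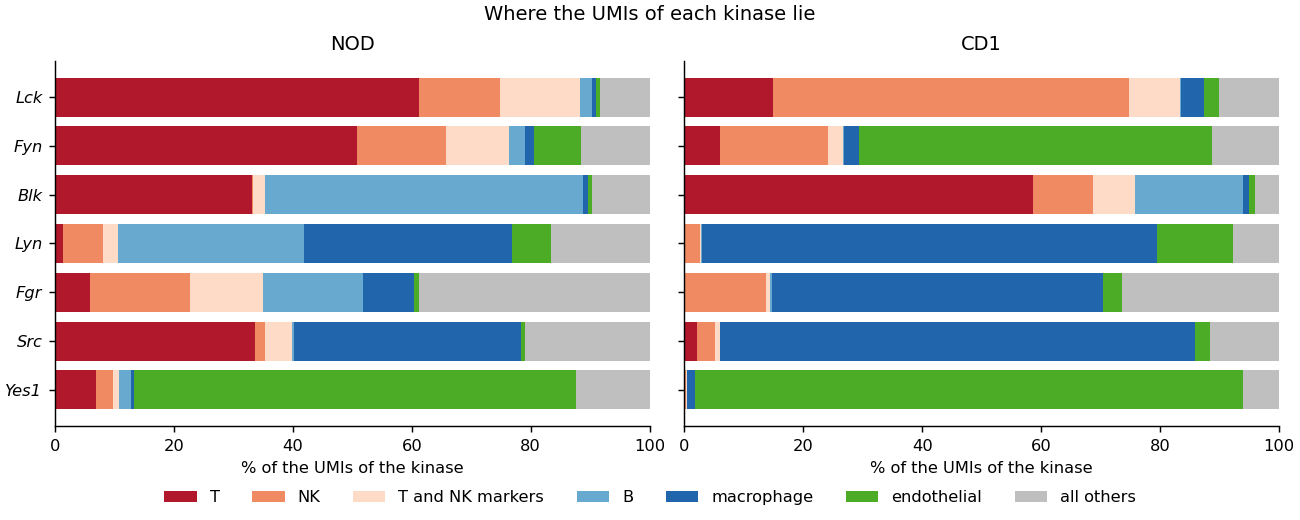
Share of each kinase's UMIs (percent, all kept barcodes) by class, 1 bar per library. Lck moves from 61.2% T-like in NOD to 60.0% NK-like in CD1, whereas Yes1 is mainly endothelial-like in both, at 74.4% and 92.3%.

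Regulators and partners of the family were read from a list of 60 genes. In T-like barcodes 49 could be compared, of which 2 were higher in NOD past 2-fold and 2 lower, against 8.59% of all genes in either direction. Those higher were Matk, a Csk-like kinase (1.50), and Syk, the partner of Fc and B cell receptors. Syk had 100 UMIs (7.29 CPM) in NOD and 0 in the far smaller CD1 class, and the interval of its log2 ratio starts at 0.74. B-marker UMIs in T-like barcodes amounted to 22.5 and 1.16 CPM and macrophage-marker UMIs to 18.3 and 33.8 CPM. Their part was not tested. Fcer1g, the Fc receptor gamma chain (-1.05), and Ptk2, focal adhesion kinase (-1.81), were lower. None of the 15 T and NK partners was past 2-fold there. Cd247, the zeta chain that Lck phosphorylates, stood at 656 and 418 CPM, Zap70 at 137 and 106 CPM, Lat at 263 and 239 CPM, Cd4 at 207 and 111 CPM and Cd8a at 184 and 179 CPM. Of the switch that sets kinase activity, Ptprc stood at 2107 and 1469 CPM in T-like barcodes, a log2 difference of 0.52, Csk at 136 and 114 CPM, and its membrane adaptor Pag1 at 343 and 302 CPM. The ubiquitin ligases Cbl and Cblb stood at 244 and 184 CPM and at 370 and 295 CPM.

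In NK-like barcodes 7 of 45 genes were higher and 1 was lower, against 9.36% of all genes in either direction. Cd28, the costimulatory receptor (1.15), Cd247 (1.11), and Themis, a T cell adaptor (1.13), were higher, as were Cd4 (54 UMIs against 4) and Cd8a (27 UMIs against 1, a difference of 4.52 with an interval from 1.92 to 9.88). The same held for the inhibitory receptors Cd72 (1.79) and Siglecg (24 UMIs against 0), while the endocytic adaptor Dab2 was lower (-3.27). T-marker UMIs are given above, B-marker UMIs in NK-like barcodes amounted to 21.7 CPM in NOD and 1.51 CPM in CD1, and macrophage-marker UMIs to 15.9 and 53.2 CPM. Their part was not tested. In B-like barcodes 4 of 48 were higher and 4 lower (4.41% of all genes in either direction), each ratio resting on 9 CD1 barcodes. Pag1 (1.36), the phosphatase Ptpn6 (1.60), the phospholipase Plcg2 (1.30) and the adaptor Skap2 (2.01, from 2 CD1 UMIs, 0.15 to 5.06) were higher, and Txk (-4.31), Skap1 (-1.15), Fcer1g (-5.01) and Hcst (-2.44) lower. The last 4 are genes of T, NK or myeloid cells, and NK-marker UMIs in B-like barcodes amounted to 24.6 CPM in NOD and 218 CPM in CD1. Their part was not tested.

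In macrophage-like barcodes 14 of 54 genes of the list were higher and 1 lower, against 10.8% of all genes in either direction. None of the 10 switch genes was past 2-fold, with Csk at 109 CPM in both libraries, Ptprc at 878 and 803 CPM, Pag1 at 338 and 359 CPM and Ptpn6 at 203 and 222 CPM. Among the receptors and adaptors, Syk stood at 181 and 131 CPM (0.47), Btk at 89.8 and 86.4 CPM, Blnk at 344 and 353 CPM, Fcer1g at 1319 and 1380 CPM, Tyrobp at 1682 and 2063 CPM (-0.29), Sirpa at 415 and 385 CPM, and Pirb at 24.2 CPM in both. Past 2-fold were the inhibitory receptor Cd22 (1.40), the adaptors Dok2 (1.66) and Nedd9 (1.57) and the caveolar protein Cav1 (-2.24), besides the 11 T and NK partners.

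In endothelial-like barcodes, where 9.84% of all genes were past 2-fold in either direction, none of the 11 adhesion genes was past 2-fold. Ptk2 stood at 563 and 457 CPM (0.30), Bcar1 at 50.4 and 50.5 CPM, Cttn at 42.8 and 49.0 CPM, Ctnnd1 at 353 and 301 CPM (0.23) and Cav1, a Src substrate abundant in endothelium, at 794 and 767 CPM (0.05). Csk stood at 27.7 and 27.4 CPM. Outside the T and NK partners, the leukocyte genes Ptprc (1.60), Ptpn22 (1.56), Syk (1.04) and Hcst (1.62) were higher, and Tyrobp (-1.04) and Lilrb4a (-1.47) lower. Macrophage-marker UMIs in these barcodes amounted to 31.4 CPM in NOD and 56.0 CPM in CD1. Their part and that of T-marker UMIs was not tested.

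Over the 13 classes of at least 50 barcodes, among 13083 genes outside the marker lists, Lck was followed most closely by Skap1, Pstpip1 and Sh2d2a, each with a Pearson r of 0.99 between log2 levels. Yes1 was followed by Jam2 (0.99), a junctional adhesion molecule, Gm13889 (0.98) and Dysf (0.98). Fyn was nearest to Nlk (0.97), Slc22a15 (0.97) and Bltp1 (0.96), and Fgr to Tec (0.95), a kinase of the family that Src kinases activate, Rfc2 (0.93) and BC035044 (0.91). Lyn was nearest to 6330407A03Rik (0.93), Nuak2 (0.93) and H2-Ab1 (0.90), Blk to Gm8369 (0.98), BE692007 (0.97) and Ccr7 (0.96), and Src to Slc35b2 (0.91), Il1rl2 (0.91) and Dtx4 (0.89). The classes share 2 libraries and differ in depth. Between members the closest pair was Fyn and Lck at 0.78, then Fgr and Lyn at 0.59, and Src and Fyn lay at -0.60.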

How the data were processed

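Cells of 2 libraries, 1 per strain, were profiled by droplet 3′ single-cell RNA sequencing. The deposited values were unfiltered UMI counts made by the authors. Their processing notes name Cell Ranger 8.0.0, Seurat 5.0.1, R 4.3.1 and build GRCm39. Tissue was dissociated with enzymes that the labels and the study's methods name differently. Barcodes with at least 500 UMIs and 300 genes were kept, with no mitochondrial limit and no doublets removed. The 2 files held 52790319 (NOD) and 56483149 (CD1) UMIs, of which 43439635 and 49420810 were in kept barcodes. A barcode joined a lineage with at least 3 UMIs of at least 2 of its markers and 70% of its marker UMIs, and was otherwise left out. Barcodes with 10 to 100 UMIs gave the free RNA. Counts were summed per lineage and strain. Past 2-fold meant an absolute log2 ratio of at least 1 with its interval on 1 side of 0, among genes with at least 20 UMIs. Shares were set beside shares after thinning to 500 UMIs. Python 3.11.15, scanpy 1.11.5 (Scrublet, alternative only), R 4.3.3 and Seurat 5.3.0 (clusters) were used, and the steps were tested on simulated data. The genes named were the 7 members, pathway genes past 2-fold, fixed partners and the 3 genes nearest each member. The members and lists were chosen with earlier results of these data known. The Trac and Trdc split, Il23r and the Eomes split were chosen after values were seen. Some genes of the lists are not reported here. The alternatives were other limits on barcodes, doublet removal, a stricter gate, clusters, another scaling and free RNA subtraction.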

Additional observations from a re-analysis of the deposited data

Results flagged for a closer look

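Yes1 had strain differences of opposite sign in a pair of lineages. Its log2 NOD over CD1 was 1.60 in NK-like barcodes (39 UMIs in NOD, 11 in CD1) and -0.25 in endothelial-like barcodes (1005 and 3879 UMIs). The NK-like UMIs lay mostly in Eomes barcodes (33 and 3 UMIs, 2.75), with 6 and 8 UMIs without Eomes and 0 and 1 in NK-like barcodes without macrophage, B or T marker UMIs. The endothelial value was 0.032 (-0.43 to 0.47) without immune marker UMIs. The difference between the lineages was not tested, since each strain is 1 library.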

How the results depend on the processing

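Of 285 recomputed values, 223 counted as unchanged and 61 moved beyond the counting interval of the reported value. The other 1 changed sign, its reported interval having lain on 1 side of 0. Unchanged meant within that counting interval or, for the map of lineages, that most members kept their highest lineage. The lineage contrasts set a lineage of higher level against one of clearly lower level, so their direction could hardly turn, and all 112 recomputed ones kept it. The value that changed sign was endothelial Yes1, at 0.032 (-0.43 to 0.47) without immune marker UMIs, where endothelial Fyn moved to 0.075 (-0.30 to 0.43). These wide intervals still held the reported values of -0.25 for Yes1 and 0.25 for Fyn. This alternative, the macrophage-like barcodes without lymphocyte markers and the Eomes split were chosen after seeing the data. The stricter gate gave 0.49 for T-like Lck and 0.37 for T-like Fyn. Clusters gave 0.37 for NK-like Lck and 0.23 for macrophage-like Lyn. Removing doublets gave 0.16 for endothelial Fyn, 0.47 for macrophage-like Lyn and -0.62 for Lyn over all barcodes. Scaling to the median gene gave 0.36 for macrophage-like Lyn, and the mean of the CPM of each barcode 0.20 for Lyn and -0.26 for Fgr there. A limit of 10% mitochondrial UMIs gave 1.60 for Fyn over all barcodes. Macrophage-like Fyn ranged from 2.04 to 3.59. Among values with an interval on both sides of 0, the sign also changed for macrophage-like Fgr (-0.26 as above, -0.040 without lymphocyte markers), B-like Blk (0.067 with the other scaling), T-like Blk (0.0064 by clusters) and endothelial Lyn (0.0021 to 0.060 in 4 alternatives). The cause of these moves was not tested. The highest lineage of each kinase was the same in CD1, B-like barcodes left out, under every alternative run. In NOD it was the same for 6 of 7 under the stricter gate and clusters, Fgr moving from NK-like to B-like barcodes. Endothelial Src gave no value with doublets removed or free RNA subtracted. No paired analysis was possible because each strain is 1 library. The 9 B-like and 104 T-like barcodes of CD1 limit the comparisons in those lineages, as do the few UMIs of Src.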
